A study of Mus musculus with 8 samples.

Results

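The genes described here are 36 genes that mark brain endothelial cells or form the blood-brain barrier, in cerebellar tissue of mice with and without *Atm*. They were a fixed list of gene symbols, matched to the Ensembl identifiers of the deposited count table. All 36 were found among its 56691 genes, and all 36 were among the 22423 genes that had enough counts to be tested. Each had at least 80 counts in every library. The list held 6 genes of cell junctions and adhesion, 6 receptors or receptor partners, 7 transcription factors, 6 transporters and 11 other surface or secreted proteins.

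The study sequenced bulk RNA of the cerebellum of 4 *Atm*-WT mice (ATM +/+, labelled control) and 4 *Atm*-KO mice (ATM -/-), 1 library per mouse, at 6 months of age. The mice were littermates of the strain B6;129S4-Atmtm1Bal/J, bred from heterozygous parents, and the labels name no treatment. Every cell of an *Atm*-KO mouse carries the mutation, so a difference does not point to the cell type in which *Atm* was lost. The study's methods state that blood was flushed out with saline through the heart before the brains were removed. The *Atm*-WT mice are called 2M, 7M, 13M and 32M and the *Atm*-KO mice 1M, 7F, 11M and 12M, after their labels, and no label pairs the mice.

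Endothelial cells line the vessels of the brain. Claudin and occludin strands seal the gaps between them, efflux pumps return drugs to the blood, and carriers and receptors bring in iron, lipids and hormones. Norrin and Wnt ligands, which act through the receptor Fzd4 and the transcription factor Lef1, maintain these properties, while VEGF and angiopoietin receptors control growth and stability of the vessels. Some of the 36 genes, among them *Tjp1*, *Tfrc*, *Slco1c1* and *Fzd4*, are also used by neurons or glia.

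Promoter sequence of the 6 genes with an adjusted p under 0.1 is shown first, because these genes carry most of the results below. The bases come from GRCm39, upstream of the start of each gene's Ensembl canonical transcript in GENCODE vM39, and are written 5′ to 3′ on the strand of the gene. Capitals mark the letters AGGAAG, the core that ETS factors such as Erg and Fli1 read, and ACGTG, which hypoxia-inducible factors read. For *Pecam1*, *Fzd4* and *Igfbp7* the longest stretch free of annotated exons within the 200 bases before the start is given. The windows of *Tfrc*, *Ly6a* and *Adgrl4* overlap exons of other transcripts of the same gene by 162, 200 and 150 bases, so that 30 bases around a match are given.
*Pecam1*, chr11:106606458-106606657, minus strand, in an intron of longer transcripts of the gene: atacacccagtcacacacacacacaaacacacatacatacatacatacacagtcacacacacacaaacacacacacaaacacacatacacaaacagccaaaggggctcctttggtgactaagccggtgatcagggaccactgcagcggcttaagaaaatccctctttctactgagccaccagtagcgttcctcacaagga
*Fzd4*, chr7:89053431-89053562, plus strand, between *Fzd4* and *Tmem135*: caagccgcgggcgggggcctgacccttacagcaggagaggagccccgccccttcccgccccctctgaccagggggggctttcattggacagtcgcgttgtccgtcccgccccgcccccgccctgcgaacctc
*Igfbp7*, chr5:77555932-77556114, minus strand, upstream of the gene: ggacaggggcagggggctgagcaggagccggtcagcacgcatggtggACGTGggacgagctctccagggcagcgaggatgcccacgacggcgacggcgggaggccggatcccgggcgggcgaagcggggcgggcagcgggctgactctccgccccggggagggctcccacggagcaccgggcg
*Tfrc*, chr16:32427703-32427732, plus strand: ggtaggtgtACGTGcggaAGGAAGtgacgt
*Ly6a*, chr15:74869625-74869654, minus strand: gtgtgggattAGGAAGGAAGagctgggtgg
*Adgrl4*, chr3:151143494-151143523, plus strand: ccggaaagtgacaggAGGAAGctgtgcgtc

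The ETS letters lay 12 to 7 bases before the start of *Tfrc* and 15 to 10 bases before that of *Adgrl4*. *Ly6a* held a pair of overlapping matches from 161 to 152 bases before its start, and *Pecam1* and *Fzd4* held no match in their windows. ACGTG was present before *Tfrc*, *Igfbp7* and *Adgrl4*, in the last of these 77 to 73 bases before the start, outside the bases shown. Of the promoters of the 36 genes, 14 (38.9%) held AGGAAG on either strand, against 23.6% of 15322 tested protein-coding genes. ACGTG was in 16.7% of the 36 and 16.4% of all promoters. CTTTGA, read by Lef1 and related factors, was in 13.9% and 9.27%, TAAACA, read by forkhead factors, in 8.33% and 6.94%, and ACAAAG, read by Sox factors, in 8.33% and 10.4%. These are matches of fixed letters and no measure of binding, and other forms of these sites were not searched.

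Total counts ran from 65967130 in mouse 12M to 88030300 in mouse 13M and gave no difference between the genotypes (two-sided p = 0.229, exact permutation of 4 against 4 mice). *Atm* itself had 67.6, 80.0, 79.4 and 59.0 CPM (normalised counts per 1e6, scaled by TMM factors) in *Atm*-WT mice 2M, 7M, 13M and 32M. It had 51.1, 44.3, 41.1 and 44.9 CPM in the *Atm*-KO mice 1M, 7F, 11M and 12M, below every *Atm*-WT mouse. These counts cover the whole gene and do not show whether the transcript is intact. The defining markers of endothelial cells were present in every library. *Cldn5*, the main claudin of the barrier, had 18.3, 13.9, 11.8 and 21.2 CPM in the *Atm*-WT mice and 15.0, 17.6, 21.3 and 17.0 CPM in the *Atm*-KO mice, in the order above. Mouse 12M, the smallest library, stood apart, being the lowest of its genotype in 25 of the 36 genes.

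The comparison of genotypes asked how these genes differ in the cerebellum of a mouse model of ataxia telangiectasia, a disease named in part for its dilated vessels. In *Atm*-KO mice 29 of the 36 genes had a lower mean than in *Atm*-WT mice and 7 a higher one. Lower means made up 80.6% of these genes, 53.1% of all genes tested and 63.8% of protein-coding genes. The largest differences were in *Igfbp7*, *Ly6a*, *Ly6c1*, *Adgrl4* and *Fzd4*, surface or secreted proteins whose means were between 33.1% and 39.3% lower. The opposite was seen for *Tfrc*, the transferrin receptor that takes up iron, which was 26.7% higher. *Cldn5* had a log2 difference of 0.13 (SE 0.17). In bulk tissue, fewer endothelial cells and less RNA per endothelial cell cannot be told apart.

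The differences were tested with edgeR by its quasi-likelihood test, and p-values were adjusted by Benjamini-Hochberg for the 22423 genes. An adjusted p under 0.05 was reached by 0 of the 36 genes and by 0.0178% of all genes tested (4 genes). At an adjusted p under 0.1 by edgeR, 5 genes were lower (*Pecam1*, *Ly6a*, *Fzd4*, *Igfbp7* and *Adgrl4*) and *Tfrc* was higher. The share of all genes called there was 0.647% lower and 1.25% higher. At an unadjusted p under 0.05, 16 genes (44.4%) were lower, against 8.48% of all genes tested and 11.7% of protein-coding genes, and 1 gene was higher, against 11.7% and 7%. In 7 genes the highest *Atm*-KO mouse lay below the lowest *Atm*-WT mouse, against 5.12% of all genes, and in *Tfrc* the lowest *Atm*-KO mouse lay above the highest *Atm*-WT mouse, against 6.47%. The median log2 difference of the 36 genes was −0.29, that of all genes −0.018 and that of protein-coding genes −0.061.

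Calls depended on the tool and on the filter. DESeq2, which the study's methods name, called 9 of the 36 genes lower and *Tfrc* higher at an adjusted p under 0.05, where it called 2.44% of its 20724 genes lower and 5.05% higher. The 9 genes were *Pecam1*, *Foxq1*, *Abcb1a*, *Ly6c1*, *Ly6a*, *Fzd4*, *Igfbp7*, *Adgrl4* and *Adgrf5*. With each library left out in turn, edgeR called only *Fzd4*, without *Atm*-WT mouse 32M. Of the 16 genes lower at an unadjusted p under 0.05, 10 stayed so in each of these 8 fits, namely the 9 genes just named and *Abcg2*. The others (*Cdh5*, *Itm2a*, *Ptprb*, *Slco1c1*, *Tjp1* and *Vwf*) had a larger p in 3 to 5 of the 8 fits, which for all of them but *Slco1c1* included the fit without mouse 12M. The share of all genes that stayed lower in all 8 fits was not counted. Each fit uses mice of the full comparison, so these counts are no separate support. Without a filter on low counts, edgeR called 6 of the 36 genes lower and *Tfrc* higher at an adjusted p under 0.05, where it called 0.479% of 36568 genes lower and 1.14% higher.

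**Figure D1:**
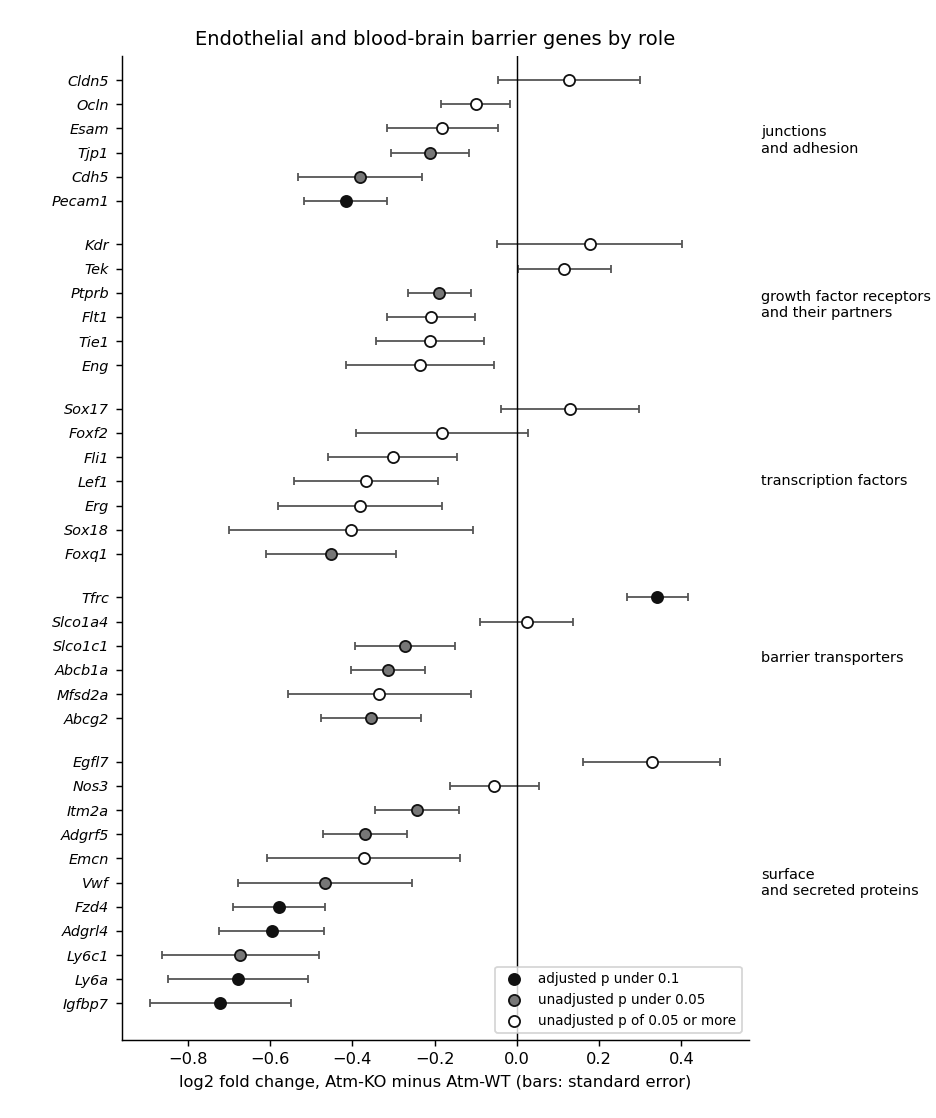
Log2 fold change of each of the 36 genes between *Atm*-KO and *Atm*-WT mice (horizontal axis, bars are the standard error of the edgeR fit), grouped by role, with filled points by p-value. Most points lie left of 0, from *Igfbp7* at −0.72 to *Tfrc* at 0.34, and *Cldn5*, *Tek*, *Kdr*, *Sox17*, *Slco1a4* and *Egfl7* are the other genes to the right.

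Of the 6 junction and adhesion genes, 3 were lower at an unadjusted p under 0.05, as were 8.48% of all genes and 11.7% of protein-coding genes. *Pecam1*, an adhesion molecule at endothelial contacts, had 24.3, 20.5, 22.2 and 23.1 CPM in the *Atm*-WT mice and 16.4, 19.5, 17.0 and 14.5 CPM in the *Atm*-KO mice. The groups did not overlap, and the log2 difference was −0.42 (SE 0.10, adjusted p = 0.0948 by edgeR). *Cdh5*, the cadherin that holds endothelial cells together, had 17.8, 14.7, 12.03 and 15.1 CPM in the *Atm*-WT mice and 9.21, 13.2, 13.2 and 10.1 CPM in the *Atm*-KO mice. Mice 7F and 11M lay above *Atm*-WT mouse 13M, so that these groups overlapped (log2 difference −0.38, SE 0.15, adjusted p = 0.190 by edgeR). *Tjp1*, the scaffold protein ZO-1 beneath tight junctions, had 161, 184, 144 and 149 CPM against 128, 151, 150 and 122 CPM. Its *Atm*-KO mice 7F and 11M were above the lowest pair of *Atm*-WT mice, and the log2 difference was −0.21 (SE 0.095, adjusted p = 0.239 by edgeR).

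The remaining junction genes had an unadjusted p over 0.05. *Cldn5* ranged from 11.8 to 21.2 CPM within the *Atm*-WT mice alone, a wider span than the difference of the means, and its edgeR p was 0.480. With each mouse left out in turn its log2 difference ran from 0.015 to 0.28. *Ocln* encodes occludin and had means of 44.5 ± 3.19 CPM in the *Atm*-WT mice and 41.5 ± 4.03 CPM in the *Atm*-KO mice (SD, n = 4 each). *Esam*, an adhesion molecule of endothelial tight junctions, had 10.1 ± 1.10 and 8.86 ± 1.32 CPM. With an SE of 0.17, a log2 difference in *Cldn5* as small as that of *Tjp1* was not detectable here.

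**Figure D2:**
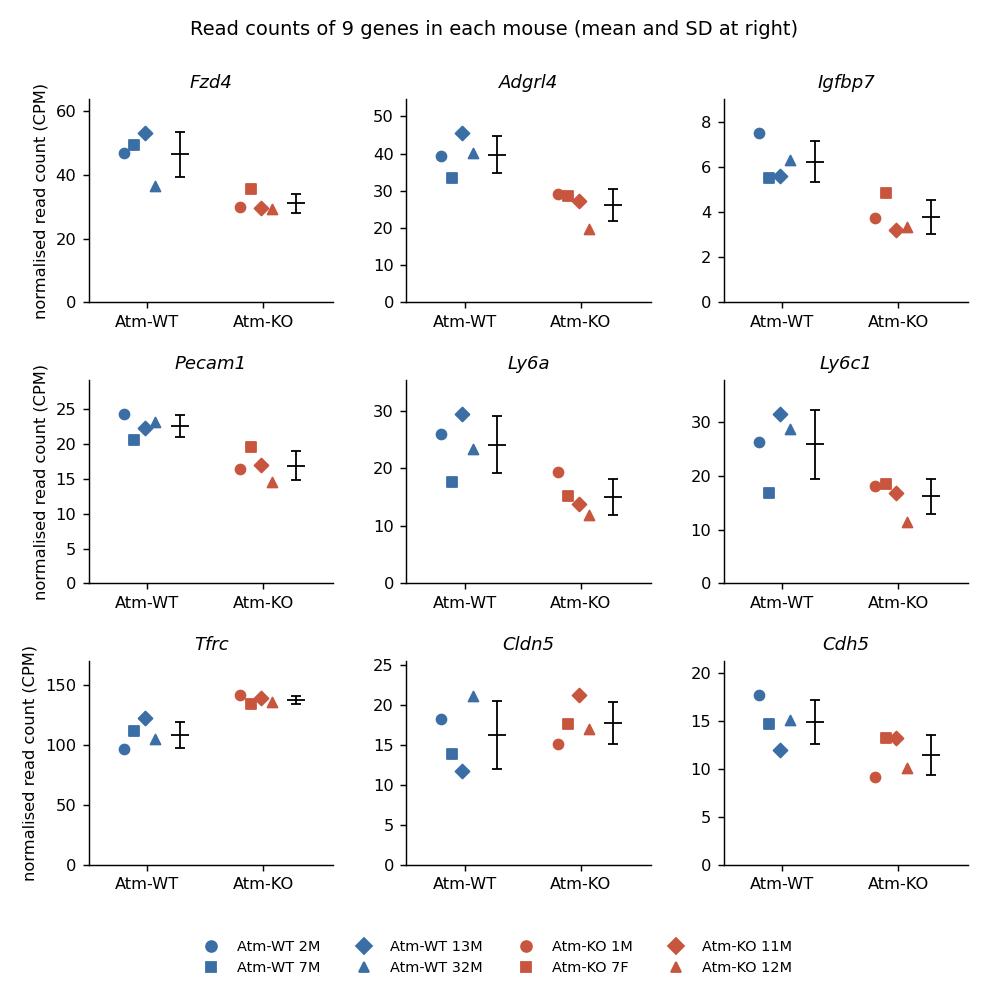
CPM of 9 genes (vertical axes, each starting at 0) in the 4 *Atm*-WT (blue) and 4 *Atm*-KO (red) mice, with a marker shape per mouse and the mean and SD to the right of the points. *Fzd4*, *Adgrl4*, *Igfbp7* and *Pecam1* separate with *Atm*-KO below, *Tfrc* with *Atm*-KO above, while *Ly6a*, *Ly6c1*, *Cdh5* and *Cldn5* overlap.

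Among the growth factor receptors and their partners, 1 of 6 genes was lower at an unadjusted p under 0.05, against 11.7% of protein-coding genes. *Ptprb*, a phosphatase that acts on Tek and VE-cadherin, had 101, 111, 100.2 and 99.9 CPM in the *Atm*-WT mice and 87.0, 93.6, 100.3 and 80.1 CPM in the *Atm*-KO mice. Mouse 11M reached the *Atm*-WT values and the other *Atm*-KO mice lay below them (log2 difference −0.19, SE 0.076, adjusted p = 0.199 by edgeR). The VEGF receptors varied with single mice. *Flt1* had a mean of 101 ± 8.67 CPM in the *Atm*-WT mice and 87.3 ± 13.9 CPM in the *Atm*-KO mice, and *Kdr*, the main signalling receptor, 15.3 ± 4.22 and 17.3 ± 4.93 CPM (SD, n = 4 each). The log2 difference was −0.21 (SE 0.11) for *Flt1*, and −0.13 without mouse 12M. For *Kdr* it was 0.18 (SE 0.23), and −0.017 without mouse 11M. The angiopoietin receptor *Tek* had 15.7 ± 1.84 and 17.1 ± 2.05 CPM and its relative *Tie1* 10.5 ± 1.37 and 9.03 ± 1.12 CPM. *Eng*, a co-receptor for BMP9, ranged from 9.76 to 17.8 CPM in the *Atm*-WT mice and from 9.49 to 14.0 CPM in the *Atm*-KO mice.

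The 7 transcription factors had low counts, with *Atm*-WT means of 2.21 to 6.81 CPM, and 6 of them had lower means in the *Atm*-KO mice, with a median log2 difference of −0.37. *Foxq1*, a forkhead factor enriched in brain endothelium, had 4.58, 3.44, 4.59 and 4.95 CPM in the *Atm*-WT mice and 3.45, 3.18, 3.28 and 2.93 CPM in the *Atm*-KO mice. Mouse 1M was barely above *Atm*-WT mouse 7M and the other *Atm*-KO mice were below all *Atm*-WT mice (log2 difference −0.45, SE 0.16, adjusted p = 0.157 by edgeR). *Lef1*, the partner of beta-catenin in the nucleus, followed with −0.37 (SE 0.18) and ranges of 4.85 to 8.42 CPM in the *Atm*-WT mice and 4.38 to 5.92 CPM in the *Atm*-KO mice. The ETS factors *Erg* and *Fli1*, which keep endothelial identity, differed by −0.38 (SE 0.20) and −0.30 (SE 0.16). Without mouse 12M *Erg* differed by −0.22, and without *Atm*-WT mouse 2M *Fli1* differed by −0.22. *Erg* was tight in *Atm*-WT mice, from 3.67 to 4.14 CPM, and in the *Atm*-KO mice ranged from 1.94 CPM in mouse 12M to 3.75 CPM in mouse 11M. *Foxf2*, *Sox18* and *Sox17* differed by −0.18 (SE 0.21), −0.40 (SE 0.30) and 0.13 (SE 0.17). These SEs are of the size of the differences. Single mice weighed on all of them, with −0.042 for *Foxf2* and −0.21 for *Sox18* without *Atm*-WT mouse 2M, and 0.012 for *Sox17* without *Atm*-WT mouse 7M.

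Of the 6 transporters, 3 were lower and 1 was higher at an unadjusted p under 0.05, where 11.7% of protein-coding genes were lower and 7% higher, and 0 reached an adjusted p under 0.05 by edgeR. *Abcb1a*, which encodes P-glycoprotein, had 49.6, 50.8, 50.8 and 46.9 CPM in the *Atm*-WT mice and 38.9, 43.4, 44.1 and 32.9 CPM in the *Atm*-KO mice. *Abcg2*, the breast cancer resistance protein pump, had 20.9, 18.8, 22.7 and 18.9 CPM against 18.1, 16.8, 16.2 and 12.3 CPM. In both genes the *Atm*-KO mice all lay below the *Atm*-WT mice, by a narrow gap in *Abcg2*. The log2 differences were −0.31 (SE 0.090, adjusted p = 0.116 by edgeR) and −0.35 (SE 0.12, adjusted p = 0.149 by edgeR). *Tfrc* had 96.3, 111, 122 and 105 CPM in the *Atm*-WT mice and 142, 134, 139 and 136 CPM in the *Atm*-KO mice. The lowest *Atm*-KO mouse was above the highest *Atm*-WT mouse, and the spread within the *Atm*-KO mice was small (SD 3.61 CPM). Its log2 difference was 0.34 (SE 0.073, adjusted p = 0.0931 by edgeR).

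The remaining transporters include 2 organic anion carriers whose genes share a cluster on chromosome 6. *Slco1c1*, which carries thyroid hormone, had 52.3, 60.4, 38.5 and 42.9 CPM in the *Atm*-WT mice and 37.8, 39.9, 41.3 and 41.7 CPM in the *Atm*-KO mice. The *Atm*-KO values fell within a narrow band inside or just under the *Atm*-WT range (log2 difference −0.27, SE 0.12, adjusted p = 0.237 by edgeR). Without *Atm*-WT mouse 7M, the highest, the difference was −0.15. *Slco1a4* had means of 56.5 ± 9.21 and 57.4 ± 6.30 CPM, a log2 difference of 0.023 whose sign changed when *Atm*-WT mouse 2M or 32M or *Atm*-KO mouse 1M was left out. *Mfsd2a*, the lysolipid carrier that brings docosahexaenoic acid into the brain, had 10.2 ± 2.13 and 8.08 ± 2.39 CPM, and mouse 12M with 4.59 CPM was well below the other *Atm*-KO mice. Its log2 difference was −0.33 (SE 0.22), and −0.14 without that mouse.

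Of the surface and secreted proteins, 8 of 11 genes were lower at an unadjusted p under 0.05, against 8.48% of all genes and 11.7% of protein-coding genes, with a median log2 difference of −0.47. *Fzd4*, the receptor of Norrin, had 46.8, 49.3, 53.3 and 36.7 CPM in the *Atm*-WT mice and 30.1, 35.7, 29.6 and 29.3 CPM in the *Atm*-KO mice. Mouse 32M was the lowest *Atm*-WT mouse and lay just above mouse 7F (log2 difference −0.58, SE 0.11, adjusted p = 0.0931 by edgeR). *Adgrl4*, an adhesion G protein-coupled receptor of vessels, had 39.4, 33.5, 45.6 and 40.1 CPM against 29.2, 28.6, 27.3 and 19.8 CPM. The groups did not overlap, and the difference was −0.60 (SE 0.13, adjusted p = 0.0931 by edgeR). *Adgrf5*, a receptor of the same family, had 56.1, 51.8, 57.2 and 47.2 CPM against 39.6, 46.4, 44.5 and 33.7 CPM. These groups did not overlap either, although mouse 7F came within 1 CPM of the *Atm*-WT mice (−0.37, SE 0.10, adjusted p = 0.112 by edgeR).

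*Igfbp7*, a secreted protein of the vessel wall, showed the lowest log2 difference of all 36 genes. It had 7.53, 5.53, 5.62 and 6.33 CPM in the *Atm*-WT mice and 3.76, 4.84, 3.22 and 3.35 CPM in the *Atm*-KO mice. The groups were apart, and the difference was −0.72 (SE 0.17, adjusted p = 0.0942 by edgeR). Its exons share 747 bases with *Polr2b*, a subunit of RNA polymerase II on the opposite strand, which had 103 CPM in the *Atm*-WT mice and 92.2 CPM in the *Atm*-KO mice. The sources do not state whether counting used the strand, so that reads of both genes in these bases may not have been told apart.

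The GPI-anchored antigens *Ly6a* and *Ly6c1*, both abundant on brain endothelium, differed by almost the same amount. *Ly6a* had 25.9, 17.7, 29.5 and 23.3 CPM in the *Atm*-WT mice and 19.3, 15.2, 13.9 and 11.9 CPM in the *Atm*-KO mice. *Ly6c1* had 26.3, 16.8, 31.6 and 28.7 CPM against 18.0, 18.6, 16.8 and 11.5 CPM. In both genes *Atm*-WT mouse 7M was far below the other *Atm*-WT mice and within the *Atm*-KO range, so that the groups overlapped. The log2 differences were −0.68 (SE 0.17, adjusted p = 0.0994 by edgeR) and −0.67 (SE 0.19, adjusted p = 0.116 by edgeR). The genes lie near each other on chromosome 15, and 15.1% of the 100-base windows of the *Ly6c1* transcript also occur in *Ly6a* or *Ly6c2* transcripts, so reads may have been shared. *Ly6c2* itself had 0.202 CPM in the *Atm*-WT mice and 0.134 CPM in the *Atm*-KO mice.

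The other surface and secreted proteins included 2 with an unadjusted p under 0.05, *Vwf* and *Itm2a*. *Vwf*, the von Willebrand factor stored in endothelial granules, had 40.3, 72.3, 40.8 and 31.5 CPM in the *Atm*-WT mice and 28.6, 34.0, 39.9 and 31.4 CPM in the *Atm*-KO mice. *Atm*-WT mouse 7M was far above all others. The log2 difference was −0.47 (SE 0.21, adjusted p = 0.245 by edgeR) with that mouse and −0.17 without it. *Itm2a*, a membrane protein of type II, had 19.5, 20.7, 20.5 and 24.6 CPM against 19.0, 17.8, 19.6 and 15.7 CPM. Mouse 11M was above *Atm*-WT mouse 2M, and the difference was −0.24 (SE 0.10, adjusted p = 0.212 by edgeR). *Emcn*, a sialomucin of capillaries and veins, differed by −0.37 (SE 0.24), by −0.22 without *Atm*-WT mouse 32M, and *Nos3*, the endothelial nitric oxide synthase, by −0.055 (SE 0.11). *Egfl7*, a secreted vessel protein whose gene also hosts a miRNA, was higher in means, 6.06 ± 1.09 against 4.83 ± 0.73 CPM (SD, n = 4 each), by 0.33 (SE 0.17) on the log2 scale and by 0.20 without mouse 1M. Its exons share 1088 bases with the opposite gene *Agpat2*, which had 1.12 CPM in the *Atm*-WT mice and 0.777 CPM in the *Atm*-KO mice.

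**Figure D3:**
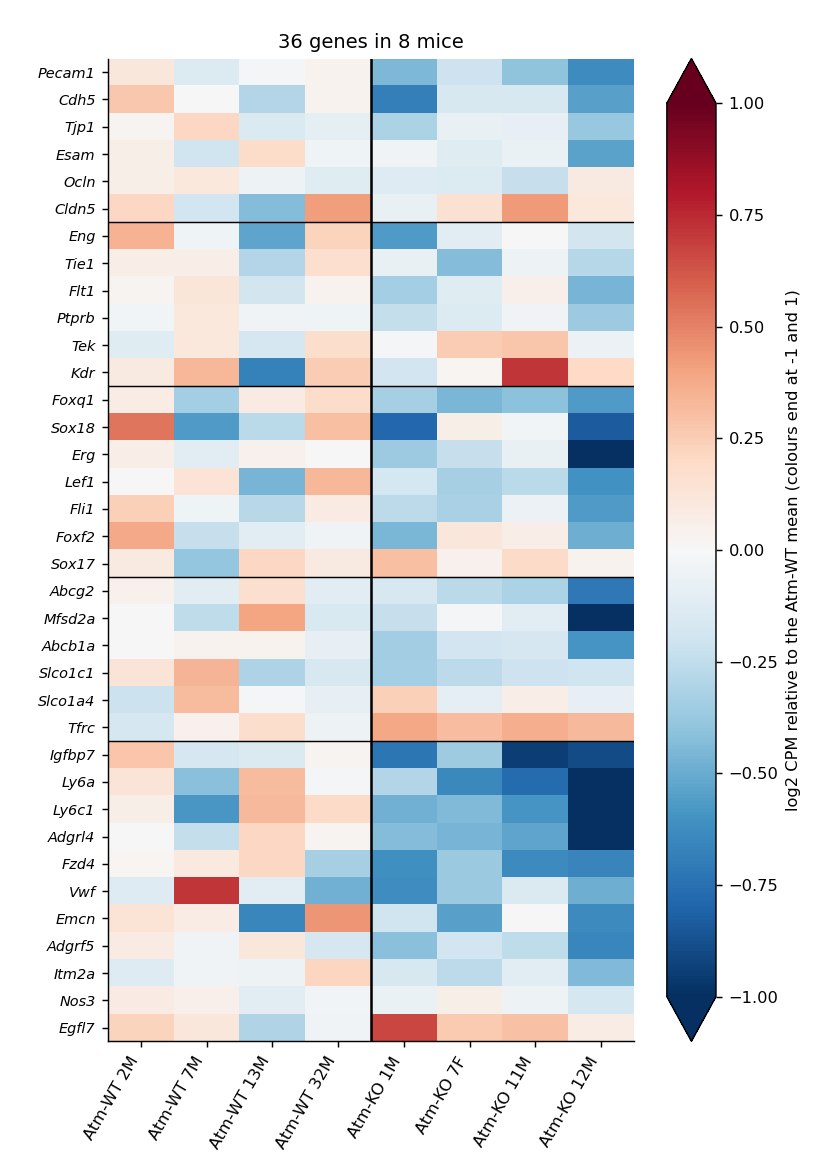
Log2 CPM of the 36 genes (rows, grouped by role as in the order of the text) in the 8 mice (columns), relative to the mean of the *Atm*-WT mice, with blue for lower and red for higher. The column of mouse 12M is the most evenly blue, *Tfrc* is red in all 4 *Atm*-KO mice, and *Cldn5*, *Kdr* and *Emcn* vary within the *Atm*-WT mice as widely as between genotypes.

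The level of the whole group differed between mice as well as between genotypes. Relative to the *Atm*-WT mean of each gene, the median over the 36 genes was 0.065, −0.018, −0.079 and 0.011 on the log2 scale in *Atm*-WT mice 2M, 7M, 13M and 32M. It was −0.28, −0.17, −0.076 and −0.51 in the *Atm*-KO mice 1M, 7F, 11M and 12M. Mouse 11M was thus level with *Atm*-WT mouse 13M, and mouse 12M was far below the rest. Without mouse 12M the median log2 difference of the 36 genes was −0.22, against −0.0052 for all genes tested in that fit. Without mouse 7F, the only mouse labelled F, these medians were −0.27 and −0.0043.

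To set the genes against other endothelial genes, each of the 26 other genes was divided by the geometric mean of 10 core endothelial genes (*Cldn5*, *Cdh5*, *Pecam1*, *Tie1*, *Tek*, *Erg*, *Sox17*, *Sox18*, *Emcn* and *Esam*). The core genes differed among themselves, with 7 lower and 3 higher in the mean, from −0.42 for *Pecam1* to 0.13 for *Sox17*. Because *Tjp1*, *Tfrc*, *Slco1c1* and *Fzd4* are also used by neurons or glia, their ratios need not describe endothelial cells. The core was 0.20 lower in the *Atm*-KO mice on the log2 scale, a difference that the mice overlapped, with −0.17 to 0.16 in the *Atm*-WT mice and −0.44 to 0.010 in the *Atm*-KO mice. Without mouse 12M this difference was −0.11, and with each library left out it ran from −0.26 to −0.11. Relative to it, 18 of the 26 genes were lower and 8 higher in the mean. *Igfbp7* (−0.53) and *Adgrl4* (−0.41) were below the core without overlap between the genotypes, and *Tfrc* (0.54) and *Egfl7* (0.52) above it without overlap. With each library left out, the difference ran from −0.63 to −0.39 for *Igfbp7*, from −0.48 to −0.28 for *Adgrl4*, from 0.44 to 0.66 for *Tfrc* and from 0.39 to 0.60 for *Egfl7*. *Ly6a* (−0.48), *Ly6c1* (−0.46) and *Fzd4* (−0.37) were lower in the mean, and their mice overlapped. Without *Atm*-WT mouse 13M the differences were −0.32, −0.30 and −0.25. *Ptprb*, *Tjp1*, *Flt1*, *Eng* and *Foxf2* were within 0.03 of the core, and between −0.14 and 0.097 of it with each library left out. These ratios are a description and were not tested.

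**Figure D4:**
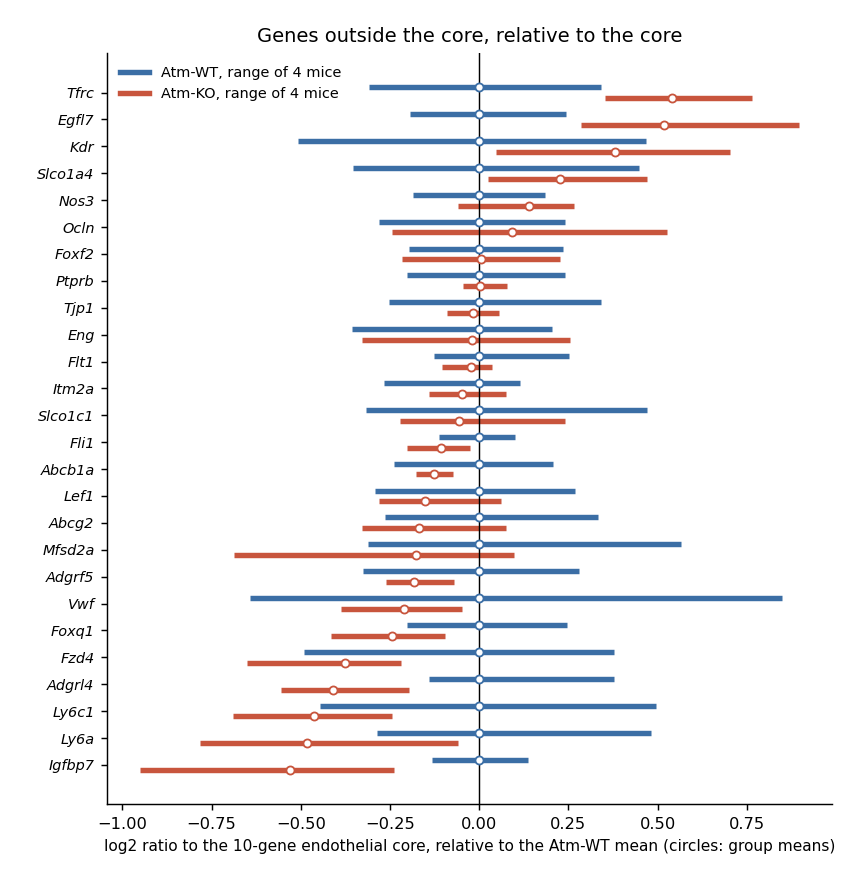
Log2 ratio of each of 26 genes to the geometric mean of the 10 core genes (horizontal axis), set to 0 at the *Atm*-WT mean, with bars for the range of 4 mice and circles for the group means. The red *Atm*-KO bars of *Tfrc* and *Egfl7* lie to the right of the blue *Atm*-WT bars and those of *Adgrl4* and *Igfbp7* to the left, and the other 22 pairs of bars overlap.

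Per kilobase of the canonical transcript, *Ly6c1* was the most abundant of the 36 genes in *Atm*-WT mice, with 23.8 ± 5.87 CPM per kb, followed by *Tjp1* with 23.0 ± 2.55 and *Tfrc* with 22.2 ± 2.22 CPM per kb (SD, n = 4 mice). These 3 levels did not differ beyond their spread. In the *Atm*-KO mice the order changed to 28.1 CPM per kb for *Tfrc*, 19.9 for *Tjp1* and 14.9 for *Ly6c1*. The defining gene *Cldn5* had 11.5 CPM per kb in the *Atm*-WT mice and 12.5 in the *Atm*-KO mice. *Foxf2* and *Foxq1* were lowest, with 0.864 and 0.906 CPM per kb in *Atm*-WT mice.

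Other genes of the same pathways are given by their counts, leaving out the 36, against the shares of protein-coding genes lower (11.7%) and higher (7%) at an unadjusted p under 0.05. An adjusted p under 0.05 by edgeR was reached by 0 of them. Of 14 further genes of VEGF, angiopoietin and BMP9 signalling, 3 were lower and 1 higher at an unadjusted p under 0.05, with a median log2 difference of −0.16. *Vegfb*, a ligand of Flt1, differed by −0.41 (SE 0.12, 21.9 against 16.5 CPM), *Flt4*, the receptor of VEGF-C, by −0.61 (SE 0.21), and *Id1*, a target of BMP receptors, by −0.57 (SE 0.18). *Vegfa*, the ligand of both Flt1 and Kdr, named after its values were seen, was higher by 0.22 (SE 0.081), with 43.2 to 52.8 CPM in the *Atm*-WT mice and 53.4 to 61.7 CPM in the *Atm*-KO mice. Of 19 further Wnt and Norrin genes, 3 were lower and 1 higher at this p, with a median of −0.073. The smallest p among them was that of *Lrp5*, the co-receptor that works with Fzd4 (−0.38, SE 0.13, 18.9 against 14.5 CPM). Of 11 Notch genes 0 were called either way at this p, with a median of −0.18.

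Among 18 further transporters of the barrier, 11 had lower means and 7 higher ones, and 4 were lower and 1 higher at an unadjusted p under 0.05, with a median log2 difference of −0.071. *Slc2a1*, the glucose carrier Glut1, had 91.2 to 168 CPM in the *Atm*-WT mice and 54.3 to 91.0 CPM in the *Atm*-KO mice (−0.68, SE 0.20). *Slc7a5*, a carrier of large neutral amino acids, had 89.2 to 118 and 78.6 to 85.0 CPM (−0.32, SE 0.088). Neither pair of groups overlapped, by a margin of under 1 CPM for *Slc2a1*. *Abcc5*, an efflux pump also found outside vessels, was higher with 184 to 236 against 117 to 180 CPM (0.47, SE 0.12).

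Of 29 further endothelial genes 26 had lower means, and 10 were lower and 1 higher at an unadjusted p under 0.05, with a median log2 difference of −0.21. The smallest p-values belonged to *Cavin2*, a coat protein of caveolae (−0.57, SE 0.11, 12.7 against 8.59 CPM), *Cyyr1* (−0.50, SE 0.12) and *Pltp*, a phospholipid transfer protein (−0.30, SE 0.086). All 11 tested genes of fenestration and activation had lower means and 4 were lower at this p. They included *Vcam1*, an adhesion molecule of activated endothelium (−0.35, SE 0.10, 29.2 against 22.9 CPM), and the weakly expressed *Lcn2*, with 0.210 to 1.61 CPM in the *Atm*-WT mice and 0.103 to 0.196 CPM in the *Atm*-KO mice, and *Lrg1*. Of 11 arterial genes 1 was lower at this p, *Mgp*, an inhibitor of calcification (−0.79, SE 0.15, 12.1 against 6.97 CPM), with a list median of −0.095. Of 9 venous genes 2 were lower at this p, which were *Vcam1* and *Lcn2* again, with a median of −0.20. Of 15 tight junction partners 2 were lower at this p, *Ctnna1* (−0.19, SE 0.079) and *Jam2* (−0.15, SE 0.066), with a median of −0.13.

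The part of other cell types in the results was not tested. At an unadjusted p under 0.05, 16 of the 36 endothelial and barrier genes, 8.48% of all genes and 11.7% of protein-coding genes were lower, and 5.12% of all genes did not overlap on that side. Lower at this p were 6 of 9 microglia markers (median log2 difference −0.39, 5 genes without overlap), 5 of 13 mural cell markers (−0.26), 3 of 8 choroid plexus markers (−0.52), 4 of 9 oligodendrocyte markers (−0.18) and 4 of 10 astrocyte markers (−0.18). Of 10 fibroblast markers 2 were lower at this p (−0.18), of 9 Purkinje cell markers 2 (−0.11), and of 9 granule cell markers and 7 red blood cell genes 0 (0.054 and 0.42). An adjusted p under 0.05 by edgeR was reached by 0 of these markers. Summed over each list, the levels overlapped between the genotypes in all 9 lists. The summed level of 13 mural cell markers, which stand for pericytes and smooth muscle, ran from 249 to 297 CPM in the *Atm*-WT mice and from 189 to 251 CPM in the *Atm*-KO mice, with 11 of 13 genes lower in the mean. That of 9 microglia markers ran from 145 to 192 and from 110 to 145 CPM, with 9 of 9 genes lower. That of 9 oligodendrocyte markers ran from 3415 to 4456 and from 2056 to 3523 CPM, with 8 of 9 genes lower. Without mouse 12M its log2 difference was −0.17 instead of −0.35. The lowest *Atm*-KO value of these 3 sums was that of mouse 12M, the mouse in which the endothelial genes were lowest too. By two-sided exact permutation tests over the mice (n = 4 per genotype, 9 lists compared) p was 0.0571, 0.0571 and 0.0857, and 0.257 after Benjamini-Hochberg adjustment in each case. Sums of 9 granule cell markers (4692 to 5474 against 4717 to 5919 CPM, exact p = 0.971, adjusted 0.971) and of 9 Purkinje cell markers (exact p = 0.371, adjusted 0.478) overlapped widely between 4 mice per genotype. Such sums mostly follow abundant genes. In the *Atm*-WT mice *Itpr1* had 6088 of a mean of 12100 CPM for Purkinje cell markers, and *Ttr* 1010 of 1229 CPM for choroid plexus markers.

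The sums of the remaining lists also overlapped between genotypes. The 8 choroid plexus markers were all lower in the mean and ran from 811 to 1608 CPM in the *Atm*-WT mice and from 445 to 1254 CPM in the *Atm*-KO mice. Their sum was 445 CPM in mouse 1M, the lowest, and 990, 808 and 1254 CPM in mice 7F, 11M and 12M. The 10 astrocyte markers were all lower in the mean, with sums of 5522 to 6335 and 4830 to 5760 CPM, and 7 of 10 fibroblast markers were, with 179 to 218 and 146 to 191 CPM. Red blood cell genes, a measure of blood left in the tissue, summed to 49.8 to 90.8 CPM in the *Atm*-WT mice and 56.5 to 102 CPM in the *Atm*-KO mice, with 1 of 7 genes lower. The adjusted exact permutation p was 0.30 for the first 3 lists and 0.707 for the last (n = 4 per genotype). No marker of the 9 lists had 0 counts in a whole genotype.

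**Figure D5:**
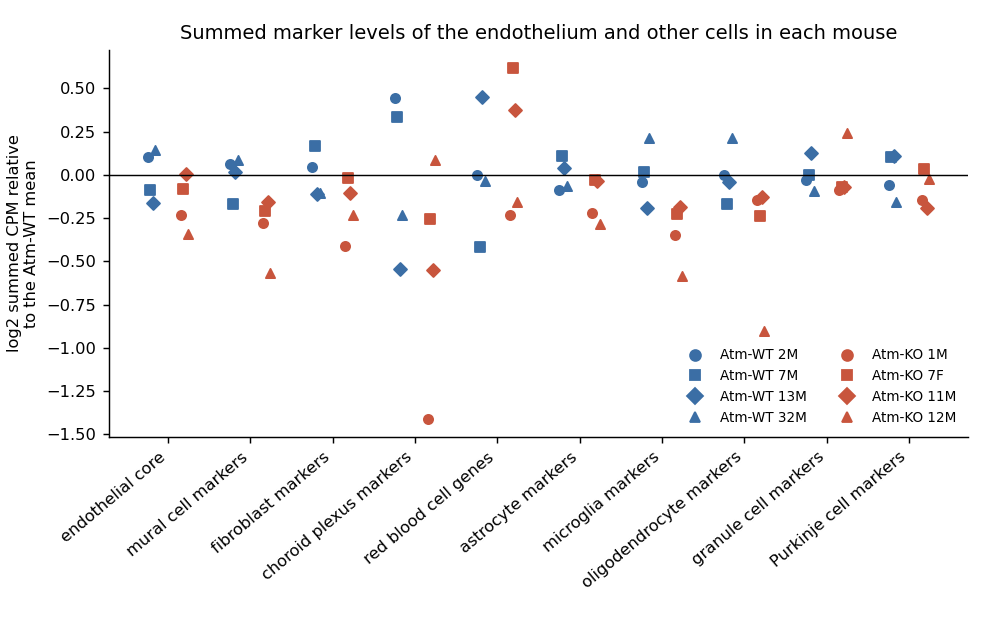
Log2 summed CPM of the core endothelial genes and of 9 marker lists (horizontal axis) in each mouse, relative to the *Atm*-WT mean, with blue for *Atm*-WT and red for *Atm*-KO and a shape per mouse. Mouse 12M (red triangles) is lowest for the endothelial core, mural, astrocyte, microglia and oligodendrocyte markers and highest for granule cell markers, and mouse 1M (red circles) is lowest for choroid plexus markers.

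Some of the 36 genes carry further limits of counting. In GENCODE vM39, 18 of them share exon bases with a gene on the opposite strand, and apart from *Igfbp7* the opposite genes with a value were at most 4.22 CPM (*Fpgs*, which overlaps *Eng*). Besides *Ly6c1*, 100-base windows were shared by 7.63% of *Abcb1a* with *Abcb1b* or *Abcb4*, 7.54% of *Ly6a* with an antisense transcript, 2.06% of *Egfl7* and 1.06% of *Slco1a4*. *Abcb1b* had 1.62 CPM in the *Atm*-WT mice and 1.99 CPM in the *Atm*-KO mice, against which *Abcb1a* was many times more abundant. *Esam* and *Fli1* lie on chromosome 9 with *Atm*, at 16.0 and 21.0 Mb from it, so that they may have been inherited together with the mutant allele.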

How the data were processed

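Per the labels and the study's methods, Novogene sequenced RNA of frozen cerebellum on an Illumina HiSeq instrument. After FastQC 0.11.9, the authors used STAR for alignment to GRCm39 and featureCounts with GENCODE Release 28 for counting, and deposited raw counts per gene without normalization. Strand and pair settings are not given in the sources used here. Between 67.3% and 73.3% of low counts were even, so a count may be a read and not a fragment. Identifiers were matched to GENCODE vM39 on GRCm39 (98.8% matched).

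Counts of all genes were filtered with filterByExpr, normalized by TMM and tested with glmQLFit and glmQLFTest of edgeR 4.0.16 in R 4.3.3, two-sided, with Benjamini-Hochberg adjustment. SEs are the log2 fold change divided by the square root of F. Log2 values used a prior count of 2. Summed markers were compared by exact permutation tests, whose smallest possible p is 0.0286. The code was checked on simulated data. No 2 libraries of a genotype agreed within sampling noise (chi-square per degree of freedom of 15.9 or more). Which mice shared a litter is not stated.

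Alternatives were DESeq2 1.42.0, limma 3.58.1 (voom), other scalings, filters or gene sets, each library left out, and the core as a covariate. The 36 genes, the lists and the tests were chosen with earlier results of these data known. Of the 36, values per mouse are given for genes with an unadjusted p under 0.05, without overlap between genotypes, or defining the cell type. Of each pathway list up to 3 genes with the smallest p under 0.05 are named, any of the 36 included, so that the Wnt list adds only *Lrp5* to *Fzd4* and *Foxq1*. Promoters were read from GRCm39.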

Additional observations from a re-analysis of the deposited data

Results flagged for a closer look

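In 3 of 92 groups of 4 mice a value stood far from the other 3, by a criterion that chance alone meets in about 4.6 of 92. *Fzd4* was 35.7 CPM in *Atm*-KO mouse 7F and 29.3 to 30.1 CPM in the other *Atm*-KO mice. *Ptprb* was 111 CPM in *Atm*-WT mouse 7M and 99.9 to 101 CPM in the other *Atm*-WT mice. The summed granule cell markers were 5920 CPM in *Atm*-KO mouse 12M and 4720 to 4780 CPM in the other *Atm*-KO mice. In that mouse most endothelial and barrier genes were the lowest of their genotype.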

How the results depend on the processing

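The number of the 36 genes with an adjusted p under 0.05 was 0 as reported (17 genes had an unadjusted p under 0.05), 7 without a filter on low counts, 10 by DESeq2, and 0 to 1 with each library left out. Those settings called 591 and 1552 genes in all, the others 1 to 27. The count lower at an unadjusted p under 0.05 ranged from 11 to 19. Shares of all genes at that p are given only for the fit as reported, with 8.48% lower and 11.7% higher. The count higher was 1 as reported and 2 with total counts alone, with protein-coding genes alone and by DESeq2 (*Egfl7* besides *Tfrc*), and 1 to 2 with each library left out. The median log2 difference ranged from −0.32 to −0.22 with each library left out. With the endothelial core as a covariate, the median over the 26 genes outside the core was −0.19, against −0.29 without it. The median of all genes tested was 0.0024 with it and −0.018 without it. Signs changed for *Slco1a4* (−0.046, −0.0086 and −0.050 without mice 2M, 32M and 1M, and up to 0.13 without mouse 7M), for *Kdr* (−0.017 without mouse 11M and up to 0.29 without mouse 1M) and, with the covariate, for *Eng* (0.0045), *Foxf2* (0.060), *Nos3* (7.3e-05) and *Slco1a4* (−0.038). Without mouse 7F the red blood cell sum was −0.0059 and the granule cell sum 0.029 on the log2 scale, and without mouse 12M they were 0.25 and −0.075, and these alternatives for the sums were chosen after seeing the data. The cause was not tested in any of these cases. Adjusted p ranged from 0.00068 to 0.293 for *Fzd4* and from 0.0069 to 0.364 for *Tfrc* over the alternatives. No paired analysis was possible because the labels pair no mice and the genotypes share a single number. With 4 mice per genotype and SEs of 0.073 to 0.30, smaller differences could not be seen.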
